A study of Mus musculus with 8 samples.

Results

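The 36 genes described here encode proteins of ribosome biogenesis, the pathway in which ribosomal RNA is transcribed, cut, modified and assembled with ribosomal proteins in the nucleolus. They are a list of nucleolar factors out of the 21951 protein-coding genes of the annotation, and their members in the data are the CLIP peaks whose midpoint lay in the body of one of these genes on the same strand. These were 403 of the 29555 peaks in the 4 CLIP libraries. In every library the opposite strand of the 36 genes held 0 peaks. CLIP–seq crosslinks proteins to RNA with ultraviolet light and sequences the RNA that is pulled down with a protein, so a peak marks a stretch of RNA recovered more often than the local background.

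The study compared RNA bound by MBD5 and MBD6, proteins of the methyl-CpG-binding domain family, in mouse embryonic stem (mES) cells. The Flag-MBD5 and Flag-MBD6 lines were wild-type mES cells given human MBD5 or MBD6 with a triple Flag tag by lentivirus, for stable overexpression under hygromycin. The cells of both lines were grown with LIF, CHIR99021 and PD0325901 and passaged on gelatin to clear feeder cells. Of the 8 samples, 4 were CLIP libraries with a peak list, 2 for each protein, and the 4 digested inputs were not analysed here. The promoter, the number of clones and the cultures behind the replicates are not given in the sources used here, an overexpressed human protein was measured in mouse cells, and no CLIP of untagged cells was analysed. The sample characteristics name a Flag antibody, whereas the extraction protocol of the same samples names an antibody against MBD6 and the source is entered as embryos.

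Estimated from the peak calls, depth was 478833 and 500153 reads in replicates 1 and 2 of Flag-MBD5 CLIP and 983927 and 1111760 reads in those of Flag-MBD6 CLIP, a depth ratio of 2.14. Both replicates of a protein differed by less than the sampling noise: the chi-square per site at the member sites was 0.48 for Flag-MBD5 and 0.712 for Flag-MBD6, and it ranged from 2.26 to 2.92 between the proteins. For this reason the replicates of a protein counted as a single sample, values are printed for each library with no SD, and no test over libraries was made. Wherever 4 values follow each other, they are Flag-MBD5 replicates 1 and 2 and then Flag-MBD6 replicates 1 and 2. With 2 libraries against 2 an exact two-sided permutation test could not go below p = 0.333. Among markers of mES cells, 7 of 10 held a reproducible region of either protein, against 14.1% of all protein-coding genes. All 6 markers of differentiated lineages and all 4 markers of feeder fibroblasts held 0 peaks in every library. The mES cell marker Lin28a also held 0. With so low a share over all genes, 0 peaks in a few genes is no test of cell identity.

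Small and large subunits mature along separate branches. The small subunit processome, built around the U3 small nucleolar RNA (snoRNA), cuts and folds the precursor of the small subunit, and a separate series of factors with several GTPases matures the large subunit. Guide snoRNAs of the box C/D class direct 2′-O-methylation and those of the box H/ACA class direct pseudouridylation of ribosomal RNA. Many snoRNA genes lie within introns of genes for ribosomal and nucleolar proteins, and mES cells, which divide quickly, make ribosomes at a high rate.

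Overlapping peaks of the 4 libraries on the same strand were merged into sites, which are numbered within each gene from its 5′ end. The 36 genes held 143 sites, and many of them began on or shortly before stretches of codons for charged amino acids. The next sequences are the first 60 nt of coding sequence at 9 of the 10 most enriched sites in order of rank, followed by Nat10 site 4 and Dkc1 site 5, which were added for their lysine codons and ranked lower, read 5′ to 3′ on the transcript strand, with in-frame codons for lysine, glutamate and aspartate in capitals. They are shown because these codons were a feature that most coding sites shared. Positions are on mouse build GRCm38 (mm10) and sequences are from GENCODE release M21 transcripts. Each run began at the 5′ end of the strongest peak, except at Wdr43 site 9 and Noc2l site 3, where the peak began 13 nt and 5 nt before the exon and the run started with the exon, and at Bms1 site 1, where it started with the start codon.
Wdr43 site 9, exon 18 of 18: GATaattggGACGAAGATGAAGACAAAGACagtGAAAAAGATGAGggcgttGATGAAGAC
Pes1 site 3, exon 13 of 15: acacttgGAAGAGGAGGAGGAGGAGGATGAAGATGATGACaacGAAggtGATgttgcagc
Bms1 site 3, exon 10 of 23: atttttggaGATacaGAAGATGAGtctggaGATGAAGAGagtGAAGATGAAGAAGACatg
Noc2l site 3, exon 17 of 19: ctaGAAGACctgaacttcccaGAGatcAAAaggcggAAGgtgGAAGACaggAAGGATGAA
Gnl3 site 8, exon 13 of 15: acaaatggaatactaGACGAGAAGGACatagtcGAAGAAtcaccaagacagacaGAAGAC
Bms1 site 1, exon 2 of 23: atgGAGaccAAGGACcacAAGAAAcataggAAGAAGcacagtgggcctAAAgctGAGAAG
Bms1 site 11, exon 23 of 23: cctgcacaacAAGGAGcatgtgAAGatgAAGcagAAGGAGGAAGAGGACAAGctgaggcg
Nop58 site 5, exon 14 of 15: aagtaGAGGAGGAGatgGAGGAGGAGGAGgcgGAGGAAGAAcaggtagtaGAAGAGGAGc
Bms1 site 8, exon 15 of 23: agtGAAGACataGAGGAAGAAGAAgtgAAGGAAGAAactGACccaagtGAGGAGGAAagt
Nat10 site 4, exon 29 of 29: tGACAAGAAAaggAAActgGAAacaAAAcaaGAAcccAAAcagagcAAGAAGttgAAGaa
Dkc1 site 5, exon 14 of 15: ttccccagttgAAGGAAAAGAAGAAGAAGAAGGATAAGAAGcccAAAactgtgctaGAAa

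The runs differed in which of the 3 amino acids they encoded. Those of Pes1 site 3 and Bms1 site 3 carried glutamate and aspartate codons without a lysine codon, and those of Dkc1 site 5 and Nat10 site 4 were rich in lysine codons. Wdr43 site 9 held 15 of 20 codons for the 3 amino acids, the highest of these 9 sites, and Gnl3 site 8 held 8 of 20, the lowest.

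Most of the 36 genes carried peaks of both proteins, and the 4 that carried none belonged to the box C/D particles and the small subunit branch. A reproducible region, a merged peak found in both libraries of a protein, was present for MBD5 in 22 of 36 genes (61.1%, 95% Wilson interval 44.9% to 75.2%). Over all protein-coding genes the share was 7.8%, and over those with a coding length within the range of the list, 540 to 8367 nt, it was 8.05%. For MBD6 the count was 28 of 36 (77.8%, 61.9% to 88.3%), against 13.8% over all protein-coding genes and 14.5% within the length range. The 22 genes with an MBD5 region were all among the 28 with an MBD6 region. Both shares of the list lay above the background, with intervals that did not reach it. The list was chosen with earlier results of these data known, so this is a description and not a test. The background includes genes that mES cells do not transcribe, and RNA levels were not measured in the peak lists, so their part in these shares was not tested.

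The 4 libraries held 78, 83, 120 and 122 peaks in the 36 genes, or 1.45%, 1.54%, 1.30% and 1.27% of their peaks. Flag-MBD6 thus gave more peaks, but per 100000 estimated reads the counts were 16.3, 16.6, 12.2 and 11 in the same order, higher for Flag-MBD5. Over all peaks the values were likewise higher for Flag-MBD5, at 1120, 1080, 937 and 862. Summits had a median of 20, 20, 25.5 and 27 reads, against 16, 16, 20 and 21 over all peaks. A summit in these genes thus had more reads than a typical summit of the same library.

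**Figure D1:**
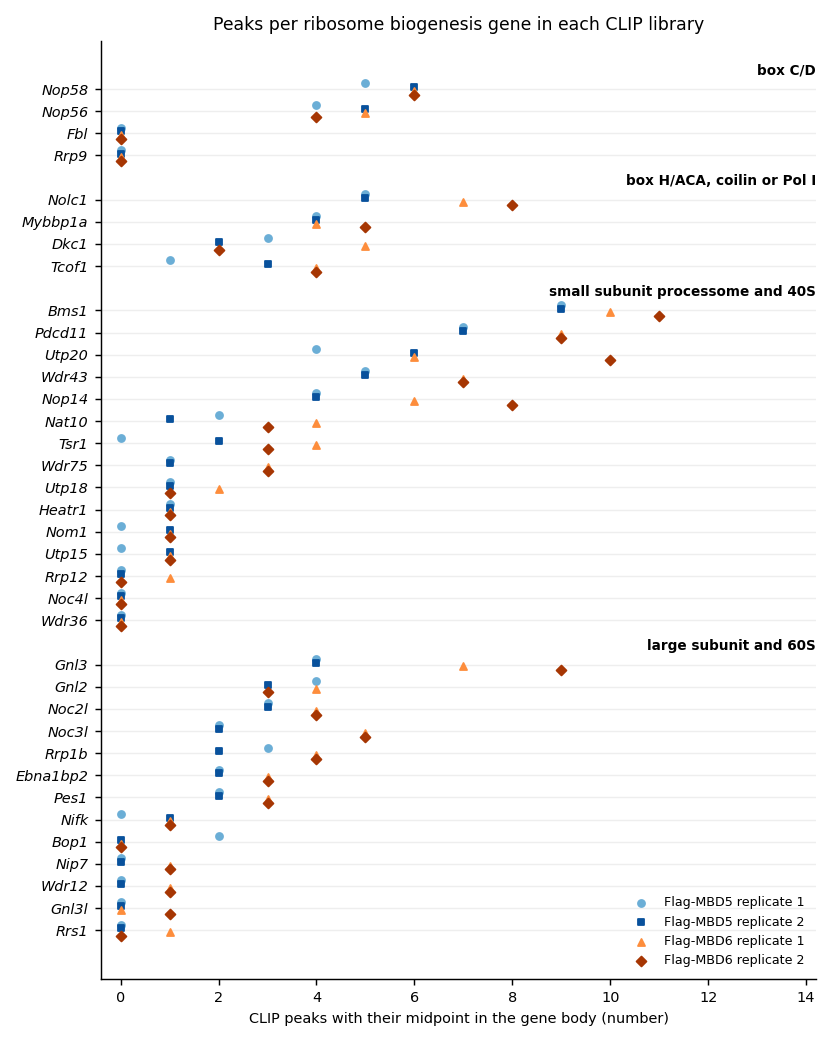
Number of peaks (x axis) in each of the 36 genes (y axis), grouped by role, with one symbol for each of the 4 CLIP libraries. Bms1, Pdcd11, Utp20 and Gnl3 reached 9 or more peaks in a library, and Fbl, Rrp9, Noc4l and Wdr36 held 0 in all 4.

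Of the 143 sites, 64 were found in all 4 libraries, 18 in 3, 28 in 2 and 33 in 1. Flag-MBD6 peaks alone made up 52 sites (36.4%) and Flag-MBD5 peaks alone made up 4 (2.8%), against 45.4% and 7.33% of all 12074 sites of the series. Those 4 sites, 2 in Bop1 and 1 each in Dkc1 and Pdcd11, all came from Flag-MBD5 replicate 1 and had 7 to 10 reads at the summit. Both Flag-MBD6 libraries without any Flag-MBD5 peak gave 23 sites (16.1%, against 20.6% of all sites), and the reverse gave 0 (against 1.28%).

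Genes of the small subunit processome and the 40S branch, 15 in the list, held 66 of the sites. A peak was found in 13 of them, an MBD5 region in 9 and an MBD6 region in 12. Wdr43, a subunit that joins the nascent transcript early, carried the most enriched site of all 36 genes. This was Wdr43 site 9 (chr17:71657463-71657800, plus strand), over the last exon. Its deposited fold enrichment of 49.3, 47.3, 96.8 and 76.4 came from 63, 61, 155 and 159 reads. Both Flag-MBD6 values exceeded both Flag-MBD5 values on either scale, before depth was considered.

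Bms1, the GTPase of the processome, held 11 sites, 8 of them found in all 4 libraries, more such sites than any other of the 36 genes. Its peaks numbered 9, 9, 10 and 11. Bms1 site 3 (chr6:118404989-118405311, minus strand) had folds of 30.9, 40.1, 45.8 and 44.7. Bms1 site 1 (chr6:118418338-118418589), over the start codon, had folds of 26.3, 23.2, 51.8 and 51.5. The peaks of Bms1 thus ran from the start of its reading frame to its last exon. Bms1 site 11 (chr6:118383548-118383807), in exon 23 of 23, had folds of 23.0, 34.5, 37.8 and 66.6. Bms1 site 8 (chr6:118396078-118396306) had folds of 27.9, 21.1, 47.9 and 30.7.

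The other genes of this branch held peaks to unequal extents. Pdcd11, which acts in both branches, held 11 sites and Utp20, the longest of the list, held 10. The strongest site of Pdcd11 in all 4 libraries, site 10, lay in a non-coding transcript of the gene and had folds of 17.5 to 24.2, while that of Utp20, site 7, had 8.77 to 17.6. Nop14, a processome assembly factor, held 8 sites, and its site 7 had folds of 23.0 to 41.2. Single sites in all 4 libraries were present in Utp18 (16 to 33.5), Wdr75 (9.27 to 23.0), Heatr1 (5.31 to 8.10) and Nat10 (9.06 to 37.7). Utp15, Nom1 and Tsr1, the last a factor of late small subunit maturation, held a region of MBD6 but not of MBD5. Rrp12 had 1 peak, in Flag-MBD6 replicate 1, and Noc4l and Wdr36 had 0.

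Genes of the large subunit branch, 13 in the list, all held a peak, and their 41 sites gave an MBD5 region in 7 genes and an MBD6 region in 10. The members of the PeBoW complex, which is needed for large subunit maturation, were unlike each other. Pes1 site 3 (chr11:3977623-3977847, plus strand) had folds of 29.9, 38.8, 49.6 and 49.7 from 53, 51, 79 and 83 reads. Bop1 held 2 peaks in Flag-MBD5 replicate 1 and 0 in the other libraries. Wdr12 held 1 peak in each Flag-MBD6 library and 0 in the Flag-MBD5 libraries. Only Pes1 of these partners therefore held regions of both proteins.

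The nucleolar GTPases of the large subunit branch also differed. Gnl3 (nucleostemin) held 9 sites, with 4, 4, 7 and 9 peaks. Its site 8 (chr14:31013062-31013271, minus strand) had folds of 24.9, 27.8, 47.9 and 53.9. Gnl2 held 4 sites, the strongest of them site 4 with folds of 16.1 to 39.6. Gnl3l held a single peak, in Flag-MBD6 replicate 2, so a reproducible region was not found in all 3 paralogues.

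The NOC proteins, which escort precursors of the large subunit, both carried sites found in all 4 libraries. Noc2l site 3 (chr4:156245826-156246074, plus strand) had folds of 31.1, 32.7, 42.8 and 41.3. Noc2l site 4 had folds of 26.0, 20.7, 39.7 and 36.3. Noc3l site 4 had folds of 12.0, 10.6, 38.7 and 22.0. At each of these sites both Flag-MBD6 folds lay above both Flag-MBD5 folds, whereas the log2 ratio of depth-scaled reads was −0.35 and −0.08 at the Noc2l sites and 0.62 at the Noc3l site. Ebna1bp2 site 3 (18.2 to 26.7) and Rrp1b site 5 (15.7 to 22.7) were weaker and likewise present in all 4 libraries. Nifk and Nip7 held an MBD6 region only, and Rrs1 had 1 peak, in Flag-MBD6 replicate 1.

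The 4 factors placed with box H/ACA particles and RNA polymerase I all held regions of both proteins. Nolc1, a chaperone of snoRNA particles with long runs of serine, acidic and lysine residues, held 9 sites, and its site 1 had folds of 24.2, 17.8, 33.8 and 41.4. Mybbp1a, a nucleolar protein linked to RNA polymerase I transcription, held 5 sites, with folds of 14.2 to 20.5 at its site 3. Tcof1 (treacle), which acts in transcription of ribosomal RNA genes, held 5 sites, with 9.73 to 26.4 at site 4. Dkc1, the pseudouridine synthase of box H/ACA particles, held 6 sites and only 1 of them in all 4 libraries. That was site 5 (chrX:75108222-75108406, plus strand), with folds of 9.24, 8.39, 19.2 and 19.5 from 11, 10, 30 and 32 reads.

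**Figure D2:**
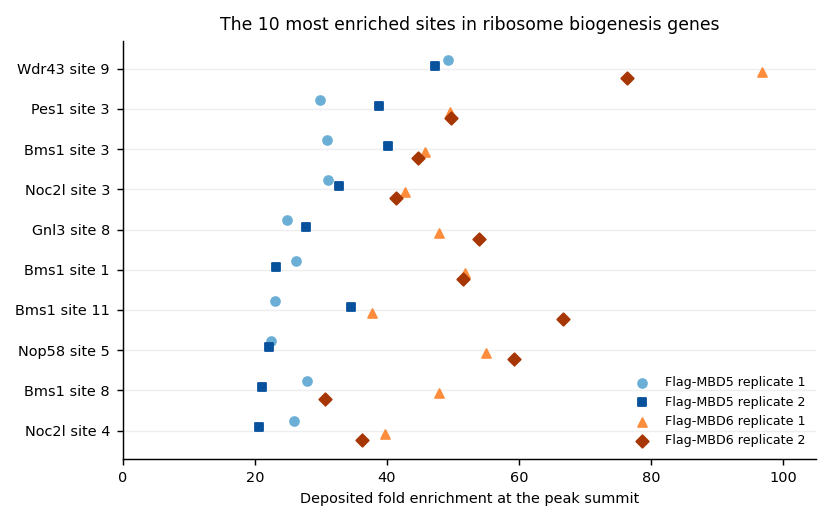
Deposited fold enrichment at the summit (x axis) for the 10 sites with the best mean rank in the 4 libraries (y axis), with one symbol per library. At all 10 sites both Flag-MBD6 folds were above both Flag-MBD5 folds, as at 55.7% of all sites found in 4 libraries, but at 4 of the 10 the log2 ratio of depth-scaled reads was below 0 (Pes1 site 3 −0.46, Bms1 site 3 −0.37, Noc2l site 3 −0.35, Noc2l site 4 −0.08).

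The box C/D proteins divided into a pair with peaks and a pair without. Nop58 and Nop56, the paired scaffold proteins of these particles, held 6 and 5 sites, of which 5 and 4 were found in all 4 libraries. In each of the 2 genes, 3 sites overlapped a snoRNA gene. Fbl, the methyltransferase of the same particles, and Rrp9, a protein specific to the U3 particle, held 0 peaks in every library. Nop58 site 5 (chr1:59710498-59710727, plus strand) had folds of 22.5, 22.1, 55.0 and 59.2 from 29, 28, 108 and 99 reads. It lies in an exon that the principal annotated transcript of Nop58 skips and a longer coding transcript holds. Nop56 site 5 (chr2:130278907-130279349, plus strand), in the last exon, had folds of 8.05, 13.9, 23.9 and 20.5.

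In all, 4 of the 36 genes held 0 peaks: Fbl, Rrp9, Noc4l and Wdr36. Their median coding length was 1486.5 nt, against 2139 nt over the 36 genes and 1158 nt over all protein-coding genes. Across the 36 genes coding length and number of sites had a Pearson r of 0.423 and a Spearman rho of 0.39. This is a description over genes that share the same libraries. The 14 genes with 5 or more sites had a median coding length of 2296.5 nt.

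The coding sites were not tied to one end of the reading frame. Of the 143 sites, 118 began in coding sequence, 16 in an exon of a non-coding transcript, 6 in an intron, 2 in a 3′ untranslated region and 1 in a 5′ untranslated region. Of the 6 intronic sites, 5 began within 15 nt before an exon, and reads had been aligned without splicing. With the coding sequence cut into 4 equal parts from the start codon, the 118 coding sites numbered 33, 20, 29 and 36. The exons in which they began had a median length of 146 nt, with untranslated parts included. The coding parts of all 666 coding exons of the 36 genes had a median of 123 nt, so these measures are not alike. By library, 82.1%, 80.7%, 80% and 83.6% of the peaks in these genes began in coding sequence, against 76.2% to 76.6% of all peaks. This share depends on the position that is classified: at the peak midpoint it was 51.8% to 59.2% and at the summit 60% to 67.2%. Fragments had been extended to 150 bp on the genome.

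**Figure D3:**
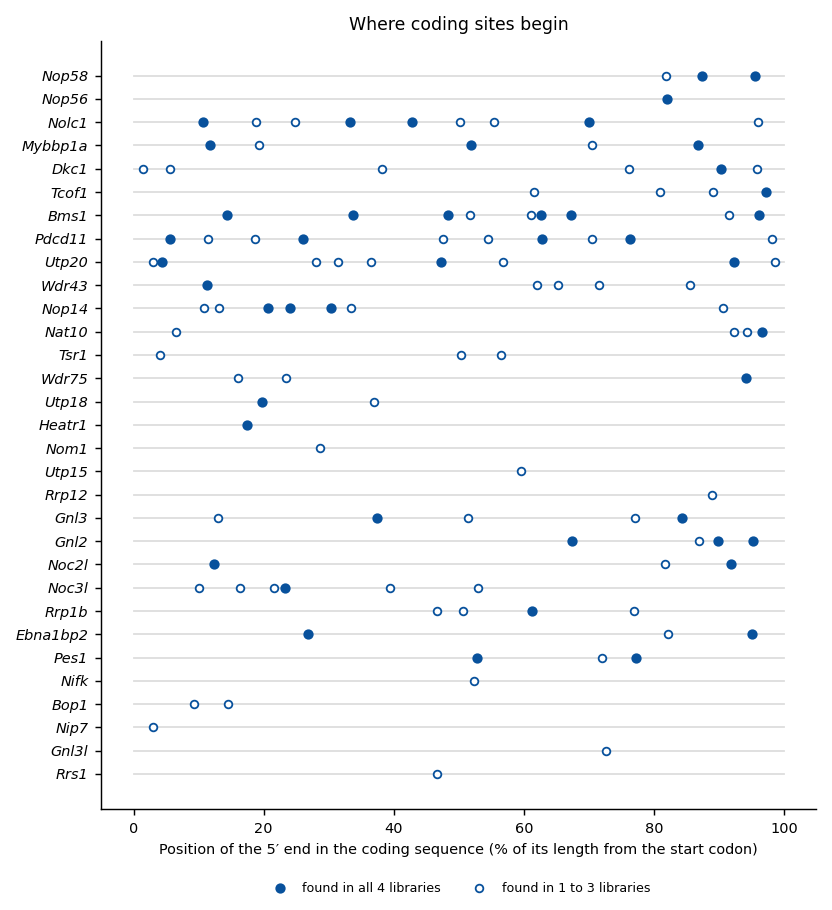
Position of the 5′ end of each coding site as a percentage of the coding length from the start codon (x axis) in each gene (y axis), filled where the site was found in all 4 libraries and open where it was found in 1 to 3. Sites lie along most of the length of Pdcd11 (5.62% to 98.2%) and Utp20 (2.92% to 98.7%), and those of Nop58 and Gnl2 lie at 67.4% or later.

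Sites began on A-rich, U-poor sequence. In the first 30 nt of coding peaks in the 36 genes, A made up 41.7%, 42.0%, 41.4% and 41.4% of bases. The whole coding sequences of the 36 genes held 27.8% A, and all coding peaks of the series held 37.6% to 38.8%. U made up 13.1% to 14.1%, against 21.6% in the coding sequences and 14.5% to 14.9% over all coding peaks. G preceded the 5′ end at 93 of the 118 coding sites (78.8%), and RNase T1, used to trim the RNA, cleaves after G. By library, G preceded 73.5% to 95.5% of the coding peaks in the 36 genes and 73.3% to 83.4% of all coding peaks.

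Codons for lysine, glutamate and aspartate made up 42.4%, 42.8%, 41.3% and 41.1% of codons in these first 30 nt. These shares were 36.3% to 36.7% over all coding peaks, 21.9% over the whole coding sequences of the 36 genes and 17.3% over all coding sequences. Lysine codons alone made up 18.8% to 20.4%, against 13.0% to 13.6% over all coding peaks, and glutamate codons 13.8% to 15.5%, against 14.7% to 15.5%. The whole coding sequences of the 36 genes already differed in the same way, with 8.69% lysine codons against 5.68% over all coding sequences, and 8.17% glutamate codons against 6.87%. The 4 genes without a peak held 16.4% such codons over their coding sequences. At 36 of the 118 coding sites codons of this kind were at least as many as all others, and at 2 sites, 1 in Gnl3 and 1 in Pdcd11, there were 0.

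Of the 31 genes with a coding site, 29 had a higher share of these codons at their sites than in their whole coding sequence. Pes1 had 59.3% at its sites against 26.7% in the whole sequence, Nat10 had 50% against 19.0% and Nop58 had 55.6% against 23.0%. Nolc1, whose coding sequence had the highest share of the 36 genes, had 41.2% against 31.1%. The 2 exceptions were Gnl3 (25% against 25.8%) and Ebna1bp2 (24.1% against 26.8%). For Nop58 the whole coding sequence was that of the principal transcript, whereas its coding sites other than site 6 were read in the longer transcript. Its 2 shares are therefore not from the same transcript. For Nop58 site 6 the codons were read in the frame of the principal transcript, and the longer transcript reads another frame there.

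**Figure D4:**
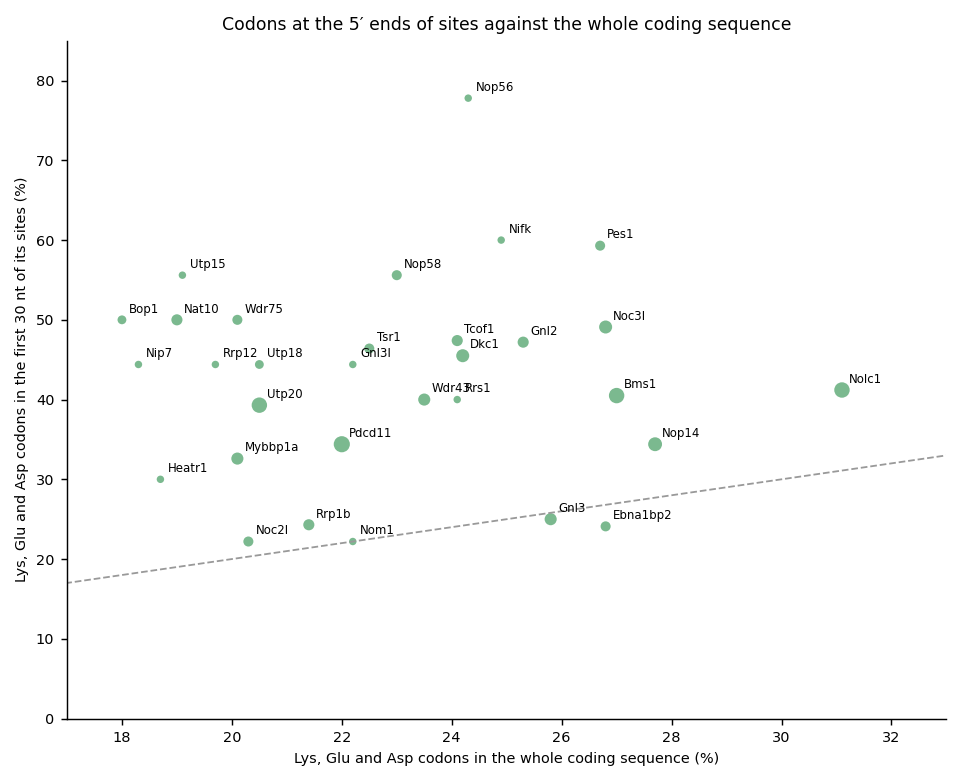
Share of lysine, glutamate and aspartate codons in the whole coding sequence (x axis, %) against the share in the first 30 nt of the coding sites of the same gene (y axis, %), one point per gene with area rising with the number of coding sites. The dashed line marks equal shares, 29 of 31 genes lie above it (Nom1 by less than the rounding, at 22.2%), and Nop56 is highest with 77.8% from 1 site.

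Introns of 6 of the genes held 18 snoRNA genes, and most of these were themselves covered by peaks. A peak of any library overlapped 14 of the 18 (77.8%), 12 of them in all 4 libraries, against 58.9% of the 350 snoRNA genes within protein-coding genes. Peaks over a snoRNA gene made up 14.1%, 15.7%, 10% and 10.7% of the peaks in the 36 genes. Over all peaks of the series these shares were 4.44%, 4.29%, 2.78% and 2.66%. Such peaks had their midpoint in the host gene and were therefore counted with it, although a peak over a snoRNA cannot be told apart from one on the intron of its host transcript.

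The hosts were Nop58, Nop56, Gnl3, Wdr43, Tsr1 and Dkc1. Nop58 held Snord70, Gm26293 and Snord11 with a peak in all 4 libraries and Gm26287 with 0. Nop56 held Snord110, Gm23650 and Snord57 with a peak in all 4 libraries, Gm24451 with a peak in 1 and Gm23187 with 0. Snord91a in Tsr1 had a peak in 3 libraries, while Gm22771 in Tsr1 and Gm25520 in Dkc1 had 0. All 3 snoRNA genes of Gnl3 (Snord69, Gm24916 and Snord19) and all 3 of Wdr43 (Snord92, Snord53 and Gm22858) had a peak in all 4. The Gm24916 peak, Gnl3 site 4, began upstream of the snoRNA gene, in coding exon 7 of Gnl3, and without it 13 of the 18 snoRNA genes had a peak, and the strongest peak of the site that reached Gm24451 began beyond its 3′ end.

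Of the next snoRNAs, Snord11 and Gm22858 are printed because they carried the lowest ratios of Flag-MBD6 to Flag-MBD5 reads of all 64 sites, and Snord69 and Snord110 as covered snoRNAs of the other main hosts. The letters searched on the strand of the RNA were TGATGA, a core of box C (first match), and CTGA, box D (last match), and matches are in capitals. TGATGA was found in 8 of the 18 (44.4%) and in 26.6% of the 350 snoRNA genes, and CTGA in 17 of the 18 (94.4%) and in 71.7%. The snoRNA genes were not split into box C/D and box H/ACA classes, so the part of class in these shares was not tested. A match is a description of letters only.
Snord11, in Nop58, chr1:59704790-59704873, plus strand: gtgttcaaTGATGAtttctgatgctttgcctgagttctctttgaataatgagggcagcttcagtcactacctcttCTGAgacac
Gm22858, in Wdr43, chr17:71641584-71641659, plus strand: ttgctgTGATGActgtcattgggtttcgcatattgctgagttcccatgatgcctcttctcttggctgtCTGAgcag
Snord69, in Gnl3, chr14:31014287-31014366, minus strand: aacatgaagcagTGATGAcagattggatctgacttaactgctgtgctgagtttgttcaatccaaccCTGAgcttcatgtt
Snord110, in Nop56, chr2:130275506-130275573, plus strand: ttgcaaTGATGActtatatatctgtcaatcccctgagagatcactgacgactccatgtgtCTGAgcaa
The 5′ ends of the strongest peaks lay at base 7 of Snord11 and of Gm22858, base 5 of Snord110 and base 22 of Snord69.

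Summit reads of the 4 libraries were close to each other at some of these snoRNAs and not at others. Snord11 had 36, 46, 36 and 35 reads and Gm22858 had 40, 38, 41 and 39, both chosen for their low ratio. Snord69 had 36, 38, 40 and 46 reads, Snord110 had 42, 44, 58 and 59, and Snord19 had 33, 38, 58 and 51. The reads of Snord11 and Gm22858 thus overlapped between the proteins, although depth differed by a ratio of 2.14. Peak calling capped the reads kept at the same position, and the part of this cap in these counts was not tested. The highest counts of the snoRNA sites were at Nop56 site 4, which spans Gm23650 and Snord57, with 104, 101, 108 and 121 reads.

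The reads of both proteins were compared at the 64 sites found in all 4 libraries, as log2 of the Flag-MBD6 to Flag-MBD5 ratio of summed summit reads scaled by the estimated depth. The median over the 64 sites was −0.19, against −0.34 over all 3566 such sites of the series. The sign of this ratio depended on the scale: with the deposited fold enrichment in place of reads the medians were 0.52 and 0.41. The deposited fold, with a constant added to signal and background, is only partly scaled to depth. On both scales the list lay above all sites, by 0.15 and 0.11. Its median by reads was −0.30 to −0.12 over the 4 pairs of a Flag-MBD6 and a Flag-MBD5 library. These pairs share libraries, so that range is not an error of the distance from all sites. Ratios are therefore read below only against the median of all sites, with exact (Clopper-Pearson) 95% intervals that cover counting error only.

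Against that median, 13 of 64 sites (20.3%) had an interval above it, where 15.4% of all sites did, and 5 (7.81%) had an interval below it, where 16.6% did. On the deposited fold enrichment both Flag-MBD6 values exceeded both Flag-MBD5 values at 41 of the 64 sites, against 55.7% of all sites, and lay below both at 5, against 10.5%. By the read intervals, the share on the high side was near that of all sites and the share on the low side was smaller. On the fold enrichment, the share was above that of all sites on the high side and below it on the low side. Both are descriptions without a test.

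Sites over snoRNA genes and the other sites stood on different sides of the median. The 12 sites over a snoRNA gene had a median log2 ratio of −0.66, with 4 below and 1 above, the latter being Gnl3 site 4, which began in coding sequence. Without it the 11 others had the same median, with 4 below and 0 above, and all 206 such sites of the series had a median of −0.67. The 11 include Nop56 site 2 (−0.38), where a peak reached the snoRNA gene Gm24451 in only 1 library. The 52 other sites had a median of −0.07, with 1 below and 12 above, against −0.31 over the 3360 other sites of the series. By role, the medians were −0.59 for box C/D, −0.18 for box H/ACA and RNA polymerase I factors, −0.07 for the small subunit branch and −0.29 for the large subunit branch. Of the 11 box C/D sites, 6 overlapped a snoRNA gene.

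Among sites with 20 or more reads in every library, the 3 highest ratios were those of Nop58 site 5 (0.76, interval 0.33 to 1.21), Wdr43 site 9 (0.24, −0.06 to 0.55) and Bms1 site 1 (0.21, −0.21 to 0.66). The 3 lowest were the Snord11 site of Nop58 (−1.31, −1.79 to −0.83), the Gm22858 site of Wdr43 (−1.06, −1.53 to −0.59) and Noc2l site 1 (−0.99, −1.50 to −0.48). In Nop58 and in Wdr43, a site near the 3′ end of the gene and a site over an intronic snoRNA gene thus stood at opposite ends. The Nop58 site began in coding sequence and the Wdr43 site just before the last exon. The intervals of each pair did not overlap, as can follow from picking the extremes. The highest ratio of all 64 sites was at Nat10 site 4, in the last exon of this RNA acetyltransferase, at 1.09 (0.55 to 1.67) from 15, 19, 78 and 77 reads (chr2:103721709-103721928, minus strand). These sites were picked by their ratio, and the values are a description.

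**Figure D5:**
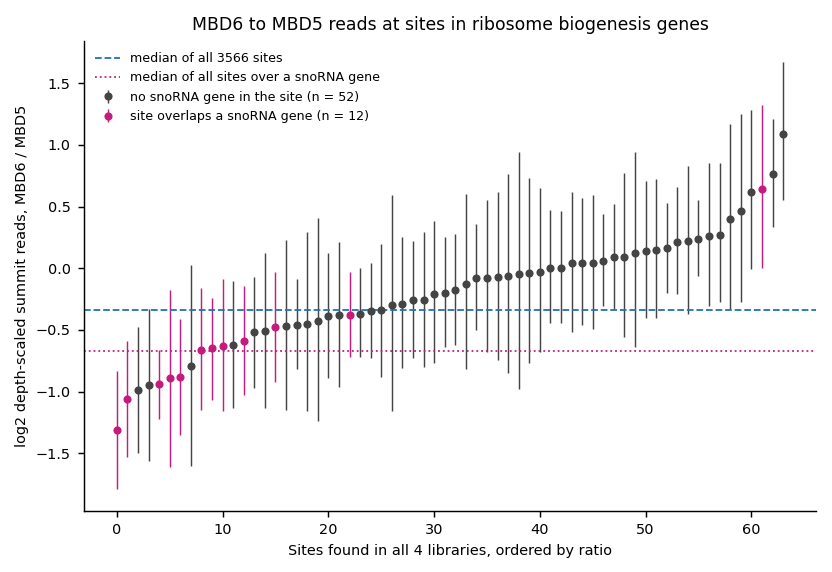
log2 ratio of depth-scaled summit reads, Flag-MBD6 over Flag-MBD5 (y axis), for the 64 sites found in all 4 libraries in rising order (x axis), with 95% counting intervals. Of the 12 sites over a snoRNA gene, 11 lie below the dashed line, the median of all 3566 sites at −0.34, and the dotted line is the median of all sites over a snoRNA gene at −0.67.

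Nearly every MBD5 region of these genes coincided with an MBD6 region. The overlap held for 65 of 67 MBD5 regions (97.0%, Wilson interval 89.8% to 99.2%), and the share over all MBD5 regions, 90%, lay within that interval. It held for 64 of 103 MBD6 regions (62.1%, 52.5% to 70.9%), and the share over all MBD6 regions, 47.7%, lay below it. With equal numbers of peaks from each library the MBD5 share was 85.1% and the MBD6 share 76.7%, so the distance between them was smaller.

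The strongest sites without any Flag-MBD5 peak had 20 or more reads in both Flag-MBD6 libraries and numbered 5 (3.5% of 143, against 5.08% of all sites of the series). They were Gnl3 site 1 (23 and 27 reads), Gnl3 site 2 (24 and 22), Mybbp1a site 2 (22 and 25), Nolc1 site 2 (25 and 27) and Tcof1 site 3 (24 and 24). Scaled to the Flag-MBD5 depth, the lower value of each pair was 10.3 to 11.7 reads, and the weakest peaks called in the Flag-MBD5 libraries had 5 reads at the summit. The reverse pattern was found at 0 sites, against 0.199% of all sites.

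Further genes of the same pathway, 77 of 78 listed with an entry in the annotation, were looked up for comparison. An MBD5 region was present in 36 of them (46.8%, 95% Wilson interval 36.0% to 57.8%) and an MBD6 region in 52 (67.5%, 56.5% to 76.9%). Both shares lay above the background of all protein-coding genes, and their intervals overlapped those of the 36 genes. This list too was chosen with earlier results of these data known, so the shares are a description. Ncl (nucleolin), a major nucleolar protein with long acidic stretches, held 8, 8, 9 and 9 peaks, with highest folds of 66.1, 61.4, 101 and 71.8. Polr1b, a subunit of RNA polymerase I, held 0 peaks.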

How the data were processed

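CLIP–seq of Flag-tagged MBD5 and MBD6 was analysed in mES cells, with 2 libraries per protein. The 36 genes and all lists were chosen with earlier results of these data known. Per the study's methods and processing notes, the authors filtered and collapsed reads, discarded those of ribosomal RNA, mapped what remained to mm10 with Bowtie 1.0.0, which does not splice, and ran MACS2 on either strand separately, with reads extended to 150 bp, a genome size of 130000000 bp and q under 0.01. The deposited score is 10 times −log10 q, and the deposited −log10 p-value and −log10 q-value are those of MACS2. The deposited fold is the ratio of summit signal to local background, with the same constant added to both. It is therefore only partly scaled to depth. MACS2 was also set to cap the number of reads kept at the same position. Whether the inputs served as its control is not given in the sources used here.

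The fold and −log10 p of each peak were solved for whole summit reads (100% of peaks in each library, against at most 2.5% of 400 shuffled ones), and depth from the background rate. Depth is thus an estimate. A site's fold and reads are the highest values within it. Peaks were assigned by midpoint to GENCODE M21 genes, and classes and sequences were taken at the 5′ end from its transcripts (1 best-ranked transcript per position). Overlap meant 1 bp on the same strand. Scripts used Python 3 with numpy, pandas, scipy and matplotlib and were tested on simulated data.

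Named were the 10 sites ranked highest by mean fold rank over the libraries, the strongest 4-library site of each gene, the 3 highest and 3 lowest ratios among sites with 20 or more reads in every library, strong sites of 1 protein and all genes without a peak. Intervals cover counting error only. Alternatives were other thresholds, equal peak numbers, positions, overlap rules, windows, scalings, a replicate block and leaving out each library. The sequence of 1 of the 10 sites is not reported here.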

Additional observations from a re-analysis of the deposited data

How the results depend on the processing

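The 27 results were recomputed in 138 comparisons with alternatives. Of these, 119 stayed within 1.5 times the count or within the counting interval, 17 moved and 2 reversed. Some of the 119 could not have moved, such as the gene counts of a protein when a library of the other was left out. The median log2 ratio of Flag-MBD6 to Flag-MBD5 reads at the 64 sites, −0.19, turned to 0.15 when scaled by the median over all sites and to 0.52 with the deposited fold enrichment, and was −0.35 at sites with 20 or more reads in every library. The deposited fold is only partly scaled to depth. With the replicate block, the mean of the log2 ratios within replicate numbers, the median was −0.19. The numbers share no stated culture. Deviations of same-numbered libraries had a correlation of 0.0297 over 3566 sites. Replicates of a protein differed by less than the sampling noise, so this value cannot show whether same-numbered libraries shared a culture. Leaving out each library in turn gave −0.22 to −0.17 for the ratio, 22 to 26 genes with an MBD5 region and 28 to 30 with an MBD6 region, 36 to 45 and 52 to 56 genes of the comparison list, and overlaps of 88.5% to 100% of MBD5 regions and 53.3% to 73.8% of MBD6 regions.

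With equal peak numbers the overlaps were 85.1% and 76.7%. The share of peaks in coding sequence was 53.8%, 51.8%, 59.2% and 57.4% in Flag-MBD5 replicates 1 and 2 and Flag-MBD6 replicates 1 and 2 at the midpoint, 60.3%, 62.7%, 60% and 67.2% at the summit, and 87.5% in Flag-MBD6 replicate 1 at 15 nt inside the peak. The lysine, glutamate and aspartate codons fell to 37.8% in Flag-MBD6 replicate 2 over the first 15 nt, and A to 39.5% in Flag-MBD5 replicate 2 over the first 50 nt. The cause was not tested for any of these. Sites under about 5 reads at the summit could not be seen at this depth, and peaks give no RNA level.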
